A study of Homo sapiens with 18 samples.

Results

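Knockdown of UPF1 was compared with a non-targeting siRNA in the absence of androgen, in 6 of the 18 libraries of the series: 3 with UPF1 siRNA and vehicle and 3 with control siRNA and vehicle. Every gene that passed a low-count filter was followed, which was 15390 of the 60649 genes in the file. The cells were LNCaP, an established human prostate adenocarcinoma line that responds to androgen. Both groups were transfected with a siGenome SmartPool, a mixture of several siRNAs, directed at UPF1 or at no human transcript. Both were moved to androgen-deprived medium on the following day, received ethanol as vehicle 48 h after transfection and were collected 48 h later. No androgen was added to either group, and the control cells received siRNA and steroid-poor medium as well. Libraries came from 500 ng of total RNA depleted of ribosomal RNA, in biological triplicate according to the labels. A single siRNA pool and a single cell line stood behind the comparison. The other 12 libraries had RCOR1 siRNA or the synthetic androgen R1881 at 5 nM. They were used for the low-count filter, the scaling, the spread and the repeats given at the end.

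UPF1 is the RNA helicase on which nonsense-mediated mRNA decay (NMD) turns. It is recruited to ribosomes that stop at a premature or otherwise abnormal position, is phosphorylated by the kinase SMG1 with SMG8 and SMG9 as its subunits, and then recruits factors such as SMG5 and SMG6, which cut or deadenylate the transcript. UPF2, UPF3A and UPF3B link UPF1 to exon junction complexes left behind by splicing, which mark a stop codon as premature. Beside faulty transcripts, NMD limits a set of normal ones, among them stress factors with upstream reading frames, splicing factors with poison exons and hosts of small nucleolar RNAs, and several NMD factors are themselves its targets. UPF1 also acts outside NMD, in the decay of histone mRNA at the end of DNA synthesis and in decay that Staufen or other RNA-binding proteins start.

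The 6 libraries held between 10299607 and 14402924 counts. On log2 CPM (counts set to a common library size and scaled by the trimmed mean of M values), the first principal component separated the siRNAs and held 57.9% of the variance, and the second, with 21.8%, spread the libraries within each group. UPF1 library 1 and control library 2 lay farthest from their groups on the component of within-group differences, which held 41.2% of that variance over the 18 libraries. MALAT1, a long nuclear RNA, took 3.05, 1.16 and 2.13% of the control counts and 2.17, 3.15 and 3.54% of the UPF1 counts. The 11 luminal prostate markers summed to between 6560 and 7260 CPM with control and between 6810 and 7530 CPM with UPF1 siRNA. The 24 markers of other cell types summed to between 25.9 and 32.9 CPM with control and between 48.8 and 54.8 CPM with UPF1 siRNA, and 10 of them were at 0 in all 6 libraries (KRT5, TP63, COL1A2, CDH5, PTPRC, CD3E, MS4A1, HBB, HBA1 and S100B). COL3A1, a fibrillar collagen, and VWF, a clotting factor carrier, rose among the 6 of these markers that passed the filter, by 1.46 and 1.15 on the log2 scale. In bulk RNA, a change in the number of cells that express a gene and a change in RNA per cell cannot be told apart.

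The targeted transcript fell in every library. UPF1 (ENSG00000005007.13, protein-coding, chr19:18831938-18868236, plus strand, GRCh38) stood at 123, 155 and 126 CPM with control siRNA and at 20.5, 22.0 and 25.9 CPM with its own. The groups did not overlap, with means of 134 ± 17.5 and 22.8 ± 2.79 CPM (SD, n = 3), and the log2 fold change was -2.56 ± 0.12 (SE, edgeR adjusted p = 1.1e-09). RCOR1, the target of the other siRNA pool, stood at -0.22 and was not called (edgeR adjusted p = 0.24). Across the transcriptome, 5318 genes were called at an edgeR adjusted p below 0.05, 34.6% of those tested. Of these, 2853 were higher (18.5% of genes tested) and 2465 were lower (16.0%). At least 2-fold changes were called upwards for 667 genes (4.33%) and downwards for 556 (3.61%). The median log2 fold change of all genes was 0.03, and each gene list is read against these shares. For the 15 list directions in which no gene was called, none passed an unadjusted edgeR p below 0.05 and DESeq2 called none.

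**Figure D1:**
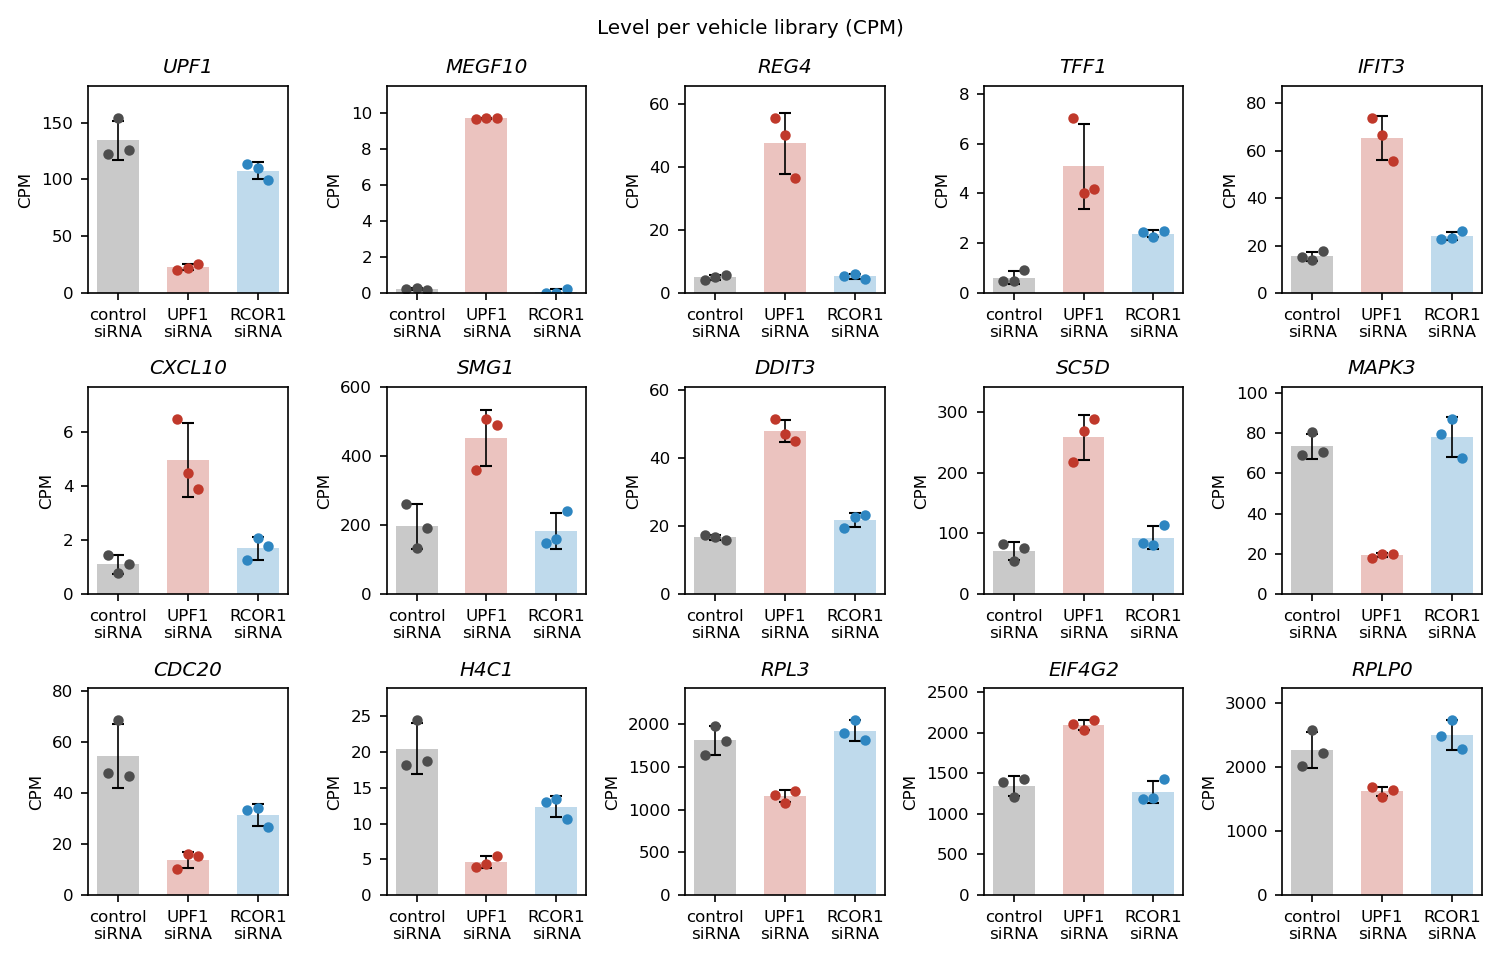
Levels (CPM, linear axis from 0) of 15 genes in the vehicle libraries with control, UPF1 or RCOR1 siRNA, with points for single libraries, bars for the mean and error bars for the SD (n = 3). The 3 UPF1 libraries lie outside the range of the control libraries for all 15 genes shown, from MEGF10 (9.67 to 9.74 against 0.183 to 0.277 CPM) to EIF4G2 (2040 to 2164 against 1204 to 1433 CPM).

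Among called genes with a mean of at least 2 CPM over the 6 libraries, the steepest rise was in MEGF10, a receptor for engulfment of dying cells in glia and muscle precursors (chr5:127290831-127465737, plus strand). It had 0.199, 0.277 and 0.183 CPM with control and 9.67, 9.72 and 9.74 CPM with UPF1 siRNA. The UPF1 libraries were close to each other and far above every control library, and the log2 fold change was 5.39 ± 0.40 (edgeR adjusted p = 1.2e-06). REG4, a secreted lectin of the gut epithelium (chr1:119794018-119811660, minus strand), went from 4.11, 5.13 and 5.78 CPM to 55.8, 50.3 and 36.7 CPM, which is 3.26 ± 0.22 on the log2 scale (edgeR adjusted p = 3.2e-08). NAV3, a microtubule plus-end protein, went from 6.76, 4.02 and 6.78 CPM to 52.3, 54.9 and 52.2 CPM (3.19 ± 0.24). In each of these genes the lowest UPF1 library lay several-fold above the highest control library. The 15 highest of these genes, which were also required not to overlap between the groups, further held the mucosal trefoil peptide TFF1 (log2 fold change 3.07), the tight junction protein CLDN8 (3.04), the ER-resident disulfide isomerase AGR2 (2.89), the keratin KRT2 (3.68) and the matrix genes FREM1 (3.01) and FBN1 (2.92). The others were the potassium channel KCNU1 (3.89), the NKG2D ligand RAET1L (3.07), the ubiquitin ligase NEURL3 (2.96), the immediate-early factor FOS (2.90), the apoptosis inhibitor BIRC3 (2.87) and the homeodomain protein HOPX (2.86). AGR2 moved with little spread, from 7.22, 7.01 and 7.79 CPM to 54.8, 54.3 and 53.9 CPM (2.89 ± 0.11, edgeR adjusted p = 1e-10).

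Among the 15 at the lower end stood UPF1 and 13 genes of DNA synthesis, chromatin or mitosis: the repressor E2F8, the histones H1-5, H3C13, H2BC14, H2AC14, H4C1, H2AC13, H3C2 and H2AC4, the motor KIFC1, the separase ESPL1, the recombination helicase RAD54L and UHRF1, which brings DNA methylation to new DNA. MAPK3, the kinase ERK1, was outside the 15 and was picked out after its values were seen. It fell from 69.0, 80.5 and 70.9 CPM to 18.1, 19.8 and 20.0 CPM (-1.93 ± 0.13, edgeR adjusted p = 3.5e-08), with 0.09 for RCOR1 siRNA, which was set against the same control libraries.

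Among 17 core NMD factors other than UPF1, 8 rose and 2 fell, with a median log2 fold change of 0.24. Both UPF3 paralogues, which tie UPF1 to exon junctions, rose. UPF3A went from 25.8, 21.6 and 22.8 CPM to 42.2, 43.4 and 40.4 CPM (0.84 ± 0.09, edgeR adjusted p = 3.3e-06), and UPF3B by 1.14 (edgeR adjusted p = 0.0087). Of the SMG1 kinase complex, the kinase SMG1 had 262, 133 and 192 CPM with control and 361, 509 and 489 CPM with UPF1 siRNA, so that the groups did not overlap although the control libraries spread widely (1.21 ± 0.35, edgeR adjusted p = 0.014). The subunits of that kinase went opposite ways. SMG9 rose from 10.4, 11.4 and 9.90 CPM to 20.4, 20.1 and 20.4 CPM (0.94 ± 0.11, edgeR adjusted p = 6.7e-06), while SMG8 fell from 36.8, 41.6 and 35.2 CPM to 19.4, 19.4 and 22.7 CPM (-0.89 ± 0.089, edgeR adjusted p = 1.7e-06). Of the effectors that act on phosphorylated UPF1, SMG5 rose by 0.66 (edgeR adjusted p = 0.00015) and its partner PNRC2, which links NMD to decapping, by 0.94 (edgeR adjusted p = 0.0021), whereas SMG6, the endonuclease, stood at 0.16 and was not called. The release factor GSPT1 rose by 0.33, NBAS by 0.24, and the poly(A)-binding protein PABPC1 fell by 0.40. UPF2 differed by 0.82 but was not called (edgeR adjusted p = 0.12), with 50.5 CPM in UPF1 library 1 and 95.9 and 115 CPM in the others. Without control replicate 2, or without UPF1 library 1 and control library 2, 5 factors were higher in place of 8, and with the within-group component as a covariate 13 were.

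Transcripts described as NMD targets did not move as a block. Of 48 tested, 21 rose and 12 fell, with a median of 0.24. Of the risers, 5 were at least 2-fold higher: DDIT3, IFRD1, SMG1 (1.21), UPF3B (1.14) and ATF3 (1.03). DDIT3 (CHOP), the apoptotic factor of the integrated stress response, went from 17.4, 16.8 and 15.95 CPM to 51.6, 47.1 and 45.0 CPM (1.52 ± 0.096, edgeR adjusted p = 2.4e-08). IFRD1, a transcription coregulator with an upstream reading frame, went from 7.49, 5.34 and 7.33 CPM to 14.8, 20.7 and 21.1 CPM (1.49 ± 0.21, edgeR adjusted p = 5.2e-05), and ATF4 from 214, 243 and 210 CPM to 421, 383 and 391 CPM (0.84, edgeR adjusted p = 6.9e-07). No library of either group crossed into the other for these 3 genes. The kinase MAP3K14 (0.81), the ubiquitin-like GABARAPL1 (0.80) and ATG12 (0.79) of autophagy, the co-chaperone BAG1 (0.61), GADD45B (0.55) and GADD45A (0.44) rose as well. GAS5, a noncoding snoRNA host that is widely used as an NMD reporter, did not differ: it had 72.0, 85.2 and 81.0 CPM with control and 75.9, 77.1 and 88.1 CPM with UPF1 siRNA (0.02 ± 0.086, edgeR adjusted p = 0.9). TBL2, another common reporter, stood at 0.21 and was not called. The fallers were mainly hosts of snoRNAs (SNHG1, SNHG12, SNHG15), splicing factors with poison exons (SRSF2, SRSF3, SRSF7, TRA2A, HNRNPH1) and ribosomal protein genes (RPL3, RPL10A, RPL12). SRSF2 fell from 169, 181 and 178 CPM to 107, 109 and 123 CPM (-0.64), and RPL3 by 0.65. Counts per gene sum productive and NMD-sensitive isoforms, so a change in isoform balance within these genes was not measured.

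Of 22 tested snoRNA host genes, 11 fell and none rose (median -0.29). SNHG16 went from 199, 235 and 206 CPM to 88.5, 94.7 and 108 CPM (-1.14 ± 0.078, edgeR adjusted p = 4.2e-08), followed by SNHG3 (-1.04), SNHG8 (78.9, 83.0 and 88.4 CPM against 35.6, 42.1 and 47.1 CPM), SNHG12 (-0.88) and SNHG1 (-0.88), while ZFAS1 stood at -0.02. Of 41 SR and hnRNP splicing factors, 18 fell and none rose (median -0.16), led by HNRNPUL1, which had 183, 221 and 194 CPM with control and 112, 107 and 117 CPM with UPF1 siRNA (-0.83 ± 0.081, edgeR adjusted p = 1.4e-06). Without UPF1 library 1 and control library 2, the falls were 7 among the hosts and 11 among the splicing factors. In the exon junction complex, 5 of 12 genes fell, among them the core helicase EIF4A3 (-0.35) and CASC3 (-0.28), and 2 rose, UPF3B and the disassembly factor PYM1 (0.48). With those libraries left out, or control replicate 2 alone, 3 fell. Of 51 genes of deadenylation, decapping and exosome decay, 12 fell and 4 rose (median -0.07), among them EXOSC4 (-0.79) and the deadenylation adaptors TOB2 (-0.69) and TOB1 (-0.57). Here 7 fell without control replicate 1 or without those libraries, and 2 rose without control replicate 2 or without UPF1 replicate 3. STAU1, the double-stranded RNA binder of Staufen-mediated decay, rose by 0.39.

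Interferon-stimulated genes (ISGs) were higher. Of 50 tested, 39 rose and none fell, a share of 78.0% against 18.5% of all genes, and the median log2 fold change was 1.08. The antiviral enzyme gene RSAD2 (viperin) stood at 14.5, 14.7 and 14.9 CPM with control and at 113, 97.5 and 80.9 CPM with UPF1 siRNA (2.72 ± 0.13, edgeR adjusted p = 1.6e-09). The RNA-binding IFIT3 went from 15.2, 13.8 and 17.5 CPM to 73.9, 66.6 and 55.5 CPM (2.08 ± 0.19, edgeR adjusted p = 8.6e-07), IFIT2 by 1.88, IFIT1 by 1.49 and OASL, a regulator of RIG-I, by 2.01. No UPF1 library came near the control range for these genes. The chemokines CXCL10 (2.16) and CCL5 (2.36), the GTPase GBP1 (1.87), the receptor chaperone RTP4 (2.56) and the RNA sensor OAS1 (1.78) rose as well, at low levels for CXCL10 (0.763 to 1.46 CPM with control, 3.90 to 6.51 CPM with UPF1 siRNA) and RTP4 (0.0917 to 0.208 against 0.724 to 1.26 CPM). Of the factors that carry the interferon signal, IRF1 rose by 1.22 and IRF7 by 0.63. STAT2 (0.22) and the GTPase MX1 (0.27) were not called. The interferon genes IFNB1 and IFNL1 did not pass the low-count filter.

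Many ISG promoters carry the interferon-stimulated response element (ISRE), to which interferon-activated factors bind. RefSeq promoters (GRCh38.p14, 250 bases before to 50 after the gene start) were matched by symbol for 10710 of the 15384 tested symbols, and were searched on both strands for GAAA, any 2 bases and GAAA again. The letters were found in 28 of 41 ISG promoters (68.3%) and in 2.74% of all 10710. Among all genes called higher, 3.27% of 2138 promoters held them, and among those called lower 2.27% of 1850. Of the 28 ISGs with a match, 22 rose (median 1.11), and of the 13 without, 9 rose (median 1.08). The 250 bases before the gene start are printed 5′ to 3′ on the gene's strand for 4 of the steepest risers with a match, so that the number and position of matches can be seen. Capitals mark the match on either strand. RTP4 (chr3:187368135-187368384, plus strand) has matches that start at -42 and -18 from the gene start, CXCL10 (chr4:76023498-76023747, minus strand) at -221, IFIT3 (chr10:89327747-89327996, plus strand) at -156 and -122 and GBP1 (chr1:89065209-89065458, minus strand) at -127.
RTP4: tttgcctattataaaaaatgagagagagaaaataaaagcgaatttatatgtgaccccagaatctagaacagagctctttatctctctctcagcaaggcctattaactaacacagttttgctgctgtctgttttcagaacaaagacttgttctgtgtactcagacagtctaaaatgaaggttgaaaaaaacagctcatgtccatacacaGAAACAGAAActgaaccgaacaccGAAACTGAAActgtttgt
CXCL10: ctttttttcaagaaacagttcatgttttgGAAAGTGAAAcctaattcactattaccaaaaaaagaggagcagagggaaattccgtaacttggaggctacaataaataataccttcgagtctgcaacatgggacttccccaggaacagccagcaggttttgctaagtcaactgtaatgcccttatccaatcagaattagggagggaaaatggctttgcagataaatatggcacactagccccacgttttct
IFIT3: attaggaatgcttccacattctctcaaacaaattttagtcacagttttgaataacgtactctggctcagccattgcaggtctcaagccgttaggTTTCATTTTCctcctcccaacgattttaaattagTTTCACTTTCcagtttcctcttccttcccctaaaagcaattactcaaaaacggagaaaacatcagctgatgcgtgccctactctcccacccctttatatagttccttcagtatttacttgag
GBP1: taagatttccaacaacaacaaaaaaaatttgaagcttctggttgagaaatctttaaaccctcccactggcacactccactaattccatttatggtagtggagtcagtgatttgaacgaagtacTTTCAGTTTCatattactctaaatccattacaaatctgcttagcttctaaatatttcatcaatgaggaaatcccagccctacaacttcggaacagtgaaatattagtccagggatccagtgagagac

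Of 18 tested nucleic acid sensors and their signalling partners, which detect foreign RNA and DNA, 5 rose, none fell and 13 were not called (median 0.23). They included DHX58 (LGP2), with 1.13, 2.01 and 2.02 CPM against 7.11, 5.69 and 4.84 CPM (1.79), DDX58 (RIG-I, 1.71), IFIH1 (MDA5), with 15.9, 10.7 and 15.9 CPM against 26.4, 30.6 and 29.2 CPM (1.02), and the adaptor TRAF3 (0.28). With the within-group component as a covariate, 10 rose. In class I antigen presentation, 7 of 20 genes rose and none fell (median 0.40). The light chain B2M went from 152, 161 and 174 CPM to 292, 260 and 248 CPM (0.71 ± 0.07, edgeR adjusted p = 1.3e-06), the immunoproteasome subunit PSMB9 by 1.74, the peptide trimmer ERAP1 by 1.10, TAPBPL by 0.78 and the transactivator NLRC5 by 0.76. Of 5 NKG2D ligands, stress signals read by natural killer cells, RAET1L rose from 1.72, 1.595 and 1.65 CPM to 16.1, 13.4 and 12.4 CPM (3.07 ± 0.19, edgeR adjusted p = 1.8e-08) and ULBP1 by 0.64.

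Of 26 tested NF-kappaB regulators and targets, 14 rose and 1 fell (median 0.49). BIRC3 had 12.2, 7.63 and 11 CPM with control and 59.8, 80.9 and 84.5 CPM with UPF1 siRNA (2.87 ± 0.45, edgeR adjusted p = 0.00014). The feedback inhibitors TNFAIP3 (A20, 1.46), NFKBIB (1.42), NFKBIE (0.51) and NFKBIA (0.41) rose, as did RELB of the noncanonical arm (1.06) and the chemokine CXCL8 (2.88). SOD2, the mitochondrial superoxide dismutase and a classic target, went the other way, from 77.8, 65.5 and 76.3 CPM to 34.6, 40.5 and 49.5 CPM (-0.82). The 3 UPF1 libraries were all below the control range for SOD2 and all above it for BIRC3. The rises numbered 9 when UPF1 library 1 and control library 2 were left out, when only the 6 libraries were fitted or when at least 50 counts were required in 3 libraries.

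Of 44 tested replication-dependent histone genes, 40 fell and none rose, 90.9% against 16.0% of all genes, with a median log2 fold change of -1.54. These genes supply the histones for newly made DNA, and their mRNAs end in a stem-loop without a poly(A) tail, which rRNA-depleted libraries retain. The linker histone H1-5 went from 153, 232 and 172 CPM to 26.2, 33.8 and 54.6 CPM (-2.28 ± 0.26, edgeR adjusted p = 5.2e-06) and the core histone H4C1 from 18.2, 24.6 and 18.8 CPM to 3.95, 4.35 and 5.49 CPM (-2.16 ± 0.22, edgeR adjusted p = 2.3e-06). UPF1 library 3 was the highest of its group in both, and still below every control library. The 4 genes not called were H3C6 (0.19), H2AC6 (-0.22), H2BC6 (-0.43) and H1-6 (-0.67). Histone genes are near-identical copies, so reads may have been split between them. Of 11 histones made outside S phase, 1 rose and 3 fell. H3-3B, a replacement H3, went from 339, 361 and 357 CPM to 519, 497 and 521 CPM (0.54 ± 0.055, edgeR adjusted p = 1.9e-06), and the centromeric CENPA (-1.65), H2AX (-1.42) and the linker H1-10 (-0.43) fell. SLBP, which binds the histone stem-loop, was the only one of 11 histone mRNA processing genes called (-0.45).

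Replication licensing and fork genes fell in 45 of 55 cases and rose in none (median -0.86). The helicase subunit MCM3 went from 86.8, 102 and 85.4 CPM to 29.4, 30.1 and 36.8 CPM (-1.51 ± 0.097, edgeR adjusted p = 2.6e-08), the loader CDC6 from 42.4, 49.7 and 47.7 CPM to 10.9, 12.4 and 20.1 CPM (-1.69), the sliding clamp PCNA by -1.15 and the licensing factor CDT1 by -1.05. All 3 UPF1 libraries were below all 3 control libraries for MCM3 and CDC6. Of 65 genes of the mitotic spindle and kinetochore, 57 fell and none rose (median -1.52). CDC20, which activates the anaphase-promoting complex, had 47.9, 68.7 and 46.4 CPM with control and 10.3, 16.2 and 15.2 CPM with UPF1 siRNA (-1.97 ± 0.20, edgeR adjusted p = 1.6e-06). KIFC1 went from 15.9, 20.3 and 16.3 CPM to 3.69, 3.95 and 3.25 CPM (-2.27 ± 0.19, edgeR adjusted p = 3e-07), ESPL1 by -2.16, PLK1 by -1.70, CCNB1 by -1.30 and the proliferation marker MKI67 by -1.52. The large kinetochore gene CENPF was not called at -1.74 (edgeR adjusted p = 0.074): it had 154, 77.6 and 88.8 CPM with control and 1.97, 29.8 and 64.5 CPM with UPF1 siRNA. UPF1 library 1 was far below its group for CENPF and for the spindle gene ASPM (1.05 against 11.3 and 20.9 CPM), though the groups did not overlap for CENPF.

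Mitotic promoters often carry a cell cycle homology region (CHR), read by the DREAM and MuvB complexes, beside CCAAT boxes for NF-Y. The letters TTTGAA were found on either strand in 37 of 55 promoters of the mitotic list (67.3%), against 9.65% of all promoters, and CCAAT in 39 (70.9%), against 37.3%. Histone promoters held CCAAT in 35 of 39 cases (89.7%). Of 48 licensing promoters, 12 (25%) held TTTCCCGC, an E2F motif, against 2.61% of all. Among all 1850 promoters of genes called lower, 11.4% held TTTGAA, 3.95% TTTCCCGC and 41.6% CCAAT. For ESPL1 (chr12:53268049-53268298, plus strand) the TTTGAA match starts at -31 from the gene start, and for CDC20 (chr1:43358731-43358980, plus strand) matches start at -178 and -65, the first of them on the opposite strand. Both are printed as examples of mitotic genes with a match, with TTTGAA or its complement in capitals.
ESPL1: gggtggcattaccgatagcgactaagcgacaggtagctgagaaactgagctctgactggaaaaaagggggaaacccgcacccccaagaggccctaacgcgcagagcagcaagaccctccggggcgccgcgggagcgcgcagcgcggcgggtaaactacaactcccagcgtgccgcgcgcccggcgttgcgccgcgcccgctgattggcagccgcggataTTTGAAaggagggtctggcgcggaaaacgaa
CDC20: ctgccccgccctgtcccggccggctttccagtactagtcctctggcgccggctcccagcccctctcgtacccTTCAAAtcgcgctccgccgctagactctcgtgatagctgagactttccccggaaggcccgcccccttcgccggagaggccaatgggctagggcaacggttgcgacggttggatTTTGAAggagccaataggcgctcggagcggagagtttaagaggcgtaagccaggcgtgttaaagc

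**Figure D2:**
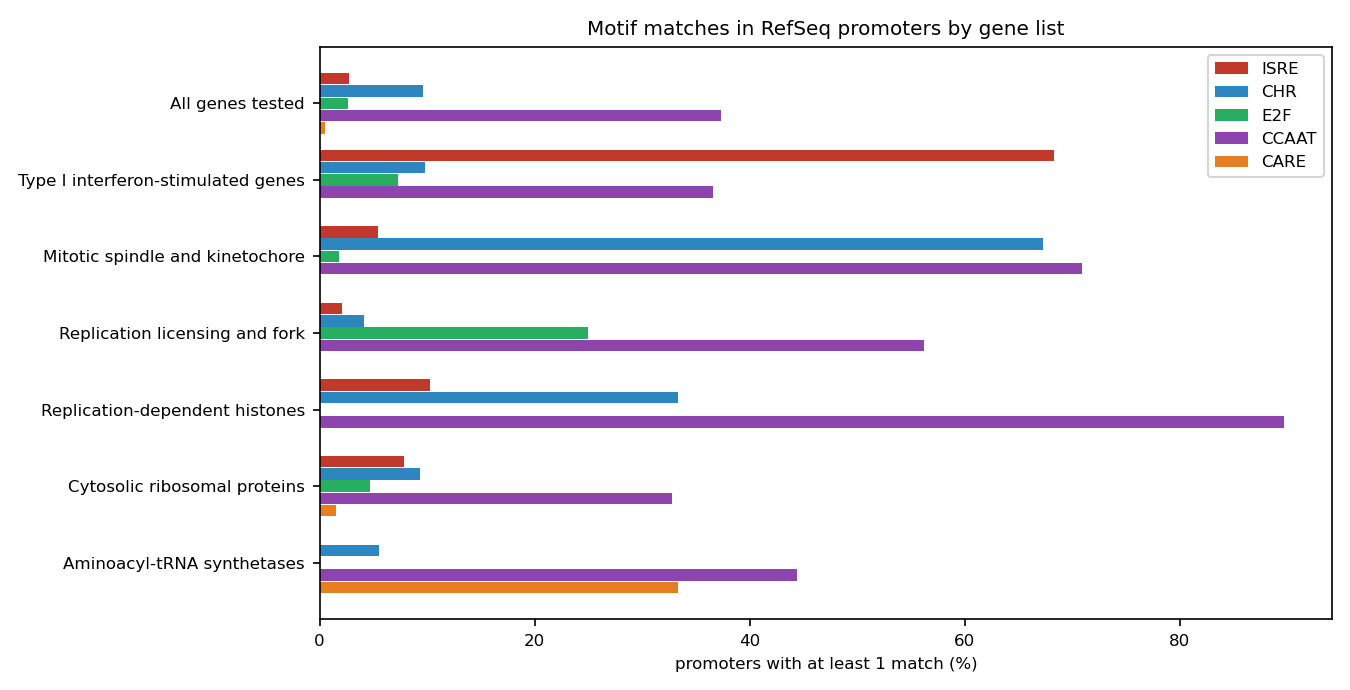
Share of promoters (percent, axis from 0) that hold each of 5 motifs on either strand, for all genes tested and for gene lists. ISRE matches stand highest in the interferon list (68.3% against 2.74% of all promoters), and CHR matches in the mitotic list (67.3% against 9.65%).

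Of 31 regulators of G1, 17 fell (54.8%) and 4 rose (12.9%), with a median of -0.53. The growth factor target MYC went from 141, 167 and 139 CPM to 37.6, 44.7 and 52.2 CPM (-1.73 ± 0.11, edgeR adjusted p = 2.7e-08), E2F1 by -1.49, E2F2 by -2.06, cyclin E1 (CCNE1) by -1.24 and the kinases CDK4 by -0.79 and CDK2 by -0.67. The 4 that rose were brakes of the cycle: CDKN2B (p15), from 5.37, 5.06 and 4.49 CPM to 35.9, 35.8 and 29.01 CPM (2.75 ± 0.17, edgeR adjusted p = 2.3e-08), CDKN1A (p21), from 285, 335 and 315 CPM to 719, 608 and 483 CPM (0.95), the pocket protein RBL2 (0.76) and CDKN1B (p27, 0.48). Neither inhibitor overlapped between the groups. Cyclin D1 (CCND1) stood at -0.14 and was not called (edgeR adjusted p = 0.057). Of 31 p53 targets, 6 rose (19.4%) and 3 fell (9.68%), against 18.5% and 16.0% of all genes (median 0.16). The share that rose was thus near that of all genes. CDKN1A, PHLDA3 (1.31) and GDF15 (2.24) rose, MDM2 was not called (-0.04) and TP53INP1 fell by 0.51. With the within-group component as a covariate 13 p53 targets rose, and with offsets smoothed on GC content 11. GDF15, a secreted stress cytokine, went from 171, 209 and 185 CPM to 1069, 903 and 691 CPM (2.24 ± 0.15, edgeR adjusted p = 3e-08).

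Ribosomal protein genes fell by a small and even amount. Of 80 tested, 72 fell and none rose, 90.0% against 16.0% of all genes, with a median of -0.40 and a range from -0.65 to 0.05. RPL3 went from 1644, 1985 and 1802 CPM to 1168, 1079 and 1219 CPM (-0.65 ± 0.086, edgeR adjusted p = 2.6e-05), and RPLP0 from 2014, 2572 and 2216 CPM to 1683, 1537 and 1637 CPM (-0.49). Groups did not overlap for either gene. RPL22 (0.05) was among the 8 not called. The elongation factors EEF1A1 (-0.52) and EEF2 (-0.47) fell as well, EEF1A1 from 6791, 7797 and 7438 CPM to 5105, 4741 and 5560 CPM. EIF4G2, which initiates cap-independent translation, rose from 1400, 1204 and 1433 CPM to 2104, 2040 and 2164 CPM (0.64 ± 0.097, edgeR adjusted p = 9e-05). Many of these genes have processed pseudogenes that can share reads, and 241 tested processed pseudogenes had a median of -0.24.

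**Figure D3:**
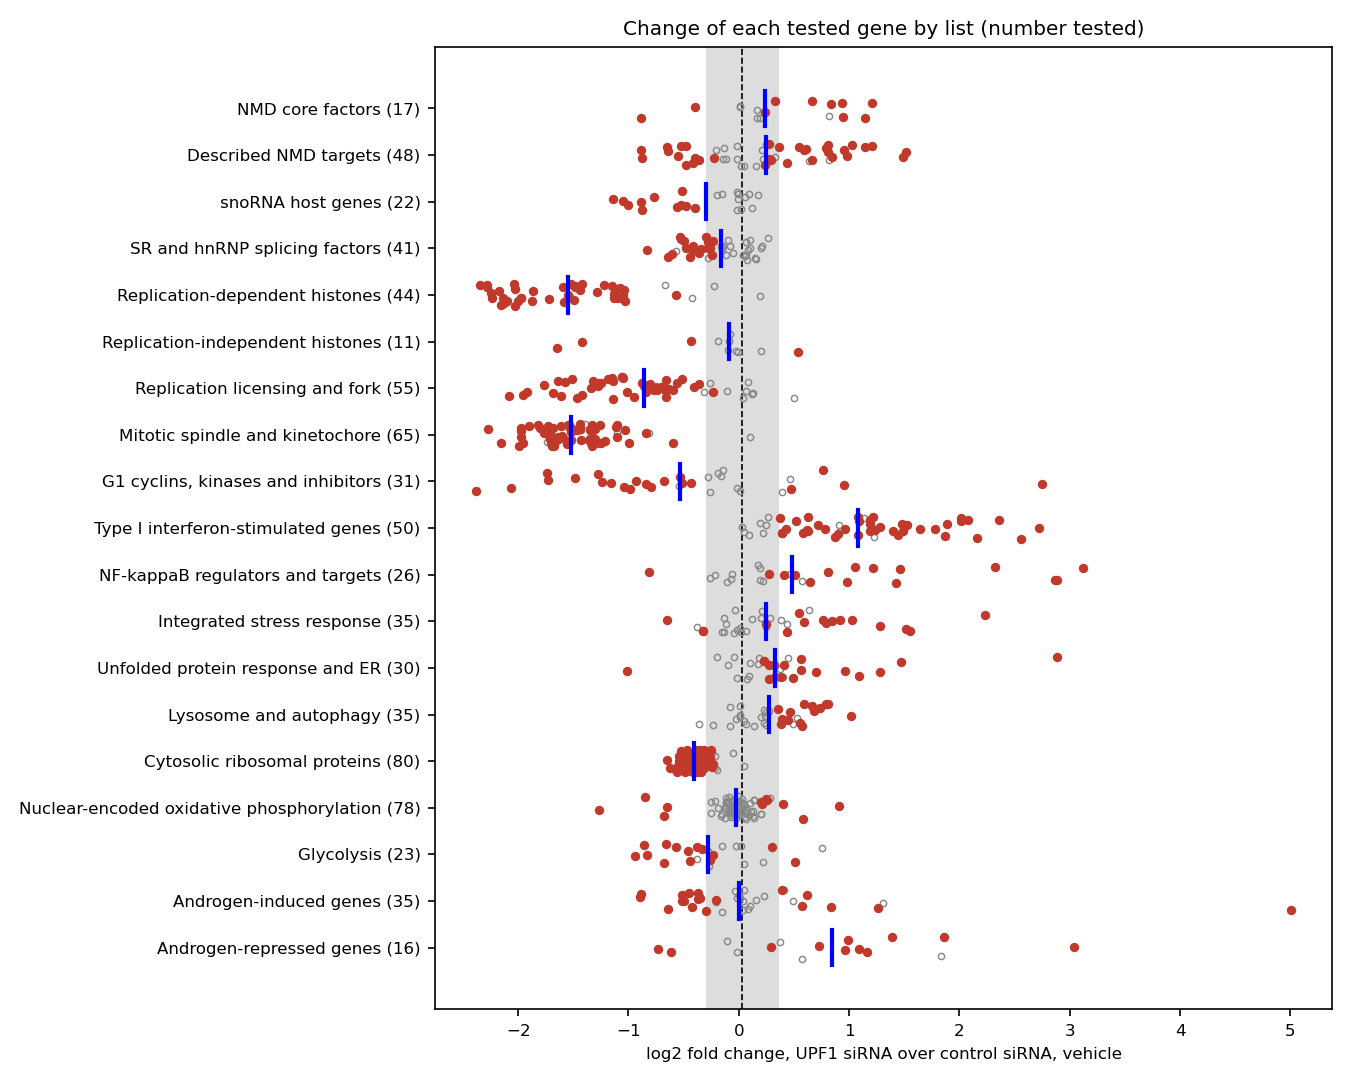
Log2 fold change of each tested member of 19 gene lists, UPF1 siRNA against control siRNA in vehicle, with called genes filled, the list median as a line and the middle quartiles of all genes (-0.29 to 0.36) as a band. Interferon-stimulated genes lie to the right (median 1.08), replication-dependent histones (-1.54) and mitotic genes (-1.52) to the left, and ribosomal protein genes in a narrow range around -0.40.

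Stress and protein-handling genes rose in part. Of 35 genes of the integrated stress response, in which eIF2 phosphorylation favours ATF4 translation, 13 rose and 3 fell (median 0.25). The chromatin-associated stress factor NUPR1 went from 138, 160 and 147 CPM to 490, 412 and 402 CPM (1.55 ± 0.11), and PPP1R15A, which reverses the phosphorylation, rose by 0.92. Among the enzymes of amino acid synthesis on this list, ASNS (0.25) and PHGDH (-0.15) were not called, CTH and PSAT1 rose by 0.55 and 0.25, and PSPH fell by 0.32. The mTOR inhibitor DDIT4 fell by 0.65. Of 30 genes of the unfolded protein response and ER, 17 rose and 1 fell (median 0.33). ERN1 (IRE1), the ER stress sensor, was among the most evenly shifted, from 46.3, 46.5 and 46.7 CPM to 114, 112 and 112 CPM (1.28 ± 0.063, edgeR adjusted p = 2.1e-09), with DNAJB9 at 1.47, the coat subunit SEC24D at 1.09, XBP1 at 0.49 and the chaperone HSPA5 (BiP) at 0.23, while the factor CREB3L4 fell by 1.01. Of 35 lysosome and autophagy genes, 15 rose and none fell (median 0.27), among them WIPI1 (1.02) and MAP1LC3B (LC3), from 71.0, 75.3 and 75.7 CPM to 120, 117 and 115 CPM (0.67 ± 0.058, edgeR adjusted p = 4.5e-07). All UPF1 libraries exceeded all control libraries for ERN1, NUPR1 and MAP1LC3B.

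Proteasome subunits rose in 11 of 31 cases and fell in none (median 0.16), with PSMB2 at 0.47, and 7 rose when no low-count filter was applied. Cytosolic heat shock chaperones went down in 6 of 17 cases and up in 1 (median -0.29): HSP90AB1 fell by 0.73 and its regulator HSF1 by 0.82, while the small chaperone HSPB8 rose by 1.19. That count was 3 without control replicate 2 and 14 with the within-group component as a covariate. Of 21 NRF2 targets, 8 rose and 2 fell (median 0.38), among them OSGIN1 (1.42), AKR1C3, which makes androgens from precursors (1.33), and HMOX1 (1.01), with NQO1 at -0.13 and not called. Without UPF1 library 1 and control library 2, 5 rose.

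Metabolic lists were mixed, beside 18.5% of all genes higher and 16.0% lower. Of 23 glycolysis genes, 12 fell and 2 rose (median -0.28). LDHA, which makes lactate, went from 210, 219 and 205 CPM to 103, 100.7 and 126 CPM (-0.94), PFKL fell by 0.86 and the hexokinases parted, with HK2 at -0.68 and HK1 at 0.51. In fatty acid synthesis, 7 of 24 genes fell (29.2%) and 5 rose (20.8%), with a median of -0.02, or 3 rose without UPF1 replicate 1. FASN, the fatty acid synthase, went from 1488, 1920 and 1488 CPM to 747, 775 and 690 CPM (-1.15 ± 0.13, edgeR adjusted p = 4.5e-06), with the desaturase FADS2 at -1.16 and the lipogenic regulator THRSP at -2.17. Of 26 cholesterol genes, 5 rose (19.2%) and 6 fell (23.1%). The desaturase SC5D had 70.9 ± 15.1 CPM with control and 259 ± 37.2 CPM with UPF1 siRNA (1.87 ± 0.26, edgeR adjusted p = 3.8e-05). Leaving out UPF1 library 1 and control library 2 left 2 falls among the cholesterol genes, and leaving out control replicate 2 left 3. Their rises numbered 3 without control replicate 1 or without UPF1 replicate 1. Of 78 nuclear-encoded subunits of oxidative phosphorylation, 7 rose (8.97%) and 4 fell (5.13%), both below the shares of all genes (median -0.02). NDUFS1, a complex I subunit, was the exception in size, going from 118, 116 and 125 CPM to 44.6, 47.7 and 56.4 CPM (-1.27 ± 0.093, edgeR adjusted p = 7e-08), with -0.01 for RCOR1 siRNA against the same controls. The rises of these subunits were small, led by COX7B2 (0.91), and numbered between 2 and 4 under 11 of the other settings and 11 with the within-group component as a covariate.

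Of 35 androgen-induced genes, 13 fell (37.1%) and 6 rose (17.1%), against 16.0% and 18.5% of all genes (median 0.00). The share that rose was thus near that of all genes. KLK3 (prostate-specific antigen) went from 268, 351 and 270 CPM to 236, 225 and 228 CPM (-0.37 ± 0.11, edgeR adjusted p = 0.013). The KLK3 call was lost without control replicate 2 (edgeR adjusted p = 0.084), which held its highest value. ACP3, prostatic acid phosphatase, moved the other way, from 233, 245 and 266 CPM to 632, 584 and 566 CPM (1.26 ± 0.065, edgeR adjusted p = 3.7e-09), and the cold channel TRPM8 rose by 0.83. STEAP4, also called higher, had no count in any control library and 0.217 to 0.395 CPM with UPF1 siRNA. Of 16 androgen-repressed genes, 9 rose and 2 fell (median 0.85). CLDN8 led the risers, from 7.09, 5.34 and 8.99 CPM to 56.9, 60.6 and 57.6 CPM (3.04 ± 0.19). In these cells CLDN8 went against the name of the list. With control siRNA its mean was 7.14 CPM in vehicle and 18.9 CPM in R1881. The growth factor binder IGFBP3 (1.39) and the opioid receptor OPRK1 (1.09) also rose, with the chemokine receptor ACKR3 (-0.62) among the fallers. Luminal factors and markers were split, with 6 higher and 6 lower of 21. The pioneer factor FOXA1 stood at -0.03 and was not called, while the ETS factor SPDEF fell by 0.64. Of the luminal genes, 3 were higher when the 6 libraries were fitted alone, 10 with the within-group component as a covariate and 11 with offsets smoothed on GC content.

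Among 14 neuronal and neuroendocrine genes, 3 rose (21.4%) and 4 fell (28.6%), against 18.5% and 16.0% of all genes. The synaptic vesicle protein SYP went from 2.52, 2.08 and 2.02 CPM to 11.8, 9.56 and 10.1 CPM (2.24 ± 0.15, edgeR adjusted p = 3.2e-08), and NAV3 by 3.19, while NAV2 (-1.26) and the tubulin binder STMN1 (-1.19) fell. Falls numbered 2 without UPF1 replicate 3 and 2 without UPF1 library 1 and control library 2. Of 28 TGF-beta and SMAD genes, 10 rose (35.7%) and 5 fell (17.9%), with a median of 0.32. The inhibitors of differentiation ID1 (0.87), ID2 (0.68) and ID3 (0.61) rose together with SMAD9 (0.74) and SMAD1 (0.66), and the receptor TGFBR1 fell by 0.83. Without control replicate 1 or 2 or UPF1 replicate 1 or 2, in turn, 3 fell. Of 40 matrix and adhesion genes, 11 rose and 6 fell (median 0.22), with the collagen COL5A2 going from 35.5, 35.5 and 37.6 CPM to 120, 111 and 120 CPM (1.69 ± 0.12, edgeR adjusted p = 6.4e-08). Fibronectin (FN1) went from 1469, 1564 and 1566 CPM to 868, 796 and 705 CPM (-0.96 ± 0.093, edgeR adjusted p = 1.3e-06), and VIM, the mesenchymal intermediate filament, fell from 3.05 ± 0.344 to 1.51 ± 0.0681 CPM. The groups did not overlap for COL5A2 or FN1.

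Of 732 lincRNAs 13.9% were higher and 9.02% lower, of 845 antisense genes 12.3% and 10.3%, and of 12415 protein-coding genes 20.1% and 17.8%. LINC00511 rose most among those with at least 2 CPM, from 2.92, 4.44 and 5.04 CPM to 31.0, 31.3 and 20.3 CPM (2.75), followed by ERVE-1 (2.65), AC015987.1 (2.37), RP11-356O9.2 (2.15), LINC01695 (2.09) and LINC02635 (2.08). TYMSOS, antisense to the start of the thymidylate synthase gene, fell by 1.53, MBNL1-AS1 by 1.51, MIR17HG, the host of the miR-17 cluster, by 1.51, and TMPO-AS1 by 1.47, with RP4-671O14.6 and CIRBP-AS1 between them. Since no strand setting is known for the counts, reads of the opposite strand cannot be told apart in the antisense genes. MALAT1 was not called (0.51 ± 0.60, edgeR adjusted p = 0.55). Of 26 small nucleolar RNAs above the filter, 6 fell and none rose (median -0.53).

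Gene structure was set beside the calls for the 12415 protein-coding genes that passed the filter. In 4 equal classes by the length of the 3′ untranslated region, a feature linked to UPF1 binding, the share called higher was 15, 20.2, 24.2 and 21.3% from shortest to longest, and the share called lower was 20.4, 18.6, 16.6 and 15.7%. Spearman's rho between that length and the log2 fold change was 0.11 over 12385 genes, which share the same 6 libraries. Transcript GC content moved with it: from the lowest to the highest of 4 GC classes the median log2 fold change was 0.16, 0.07, 0.01 and -0.06 and rho was -0.18. The GC relation had the opposite sign in the R1881 libraries, with rho of 0.25, and that of the untranslated region was -0.05 there. The part of GC content in the length relation was not tested beyond classes of GC content. From the lowest to the highest GC class, 14.0, 20.5, 17.1 and 11.1% of the genes in the shortest class of 3′ untranslated regions were higher, against 15.5, 29.8, 23.7 and 16.2% in the longest class. The shares called lower were 8.57, 17.6, 22.5 and 23.5% in the shortest and 6.13, 20.5, 25.2 and 28.8% in the longest class. The share called lower was thus larger with long regions in 3 of the 4 GC classes, opposite to its order over all GC classes together. Genes with an annotated NMD transcript (5362) were higher in 20.6% and lower in 16.9% of cases, against 19.7% and 18.5% of the 7053 without. Single-exon genes, which carry no exon junction and include many histones, were lower in 32.0% of 300 cases and higher in 9.0%.

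**Figure D4:**
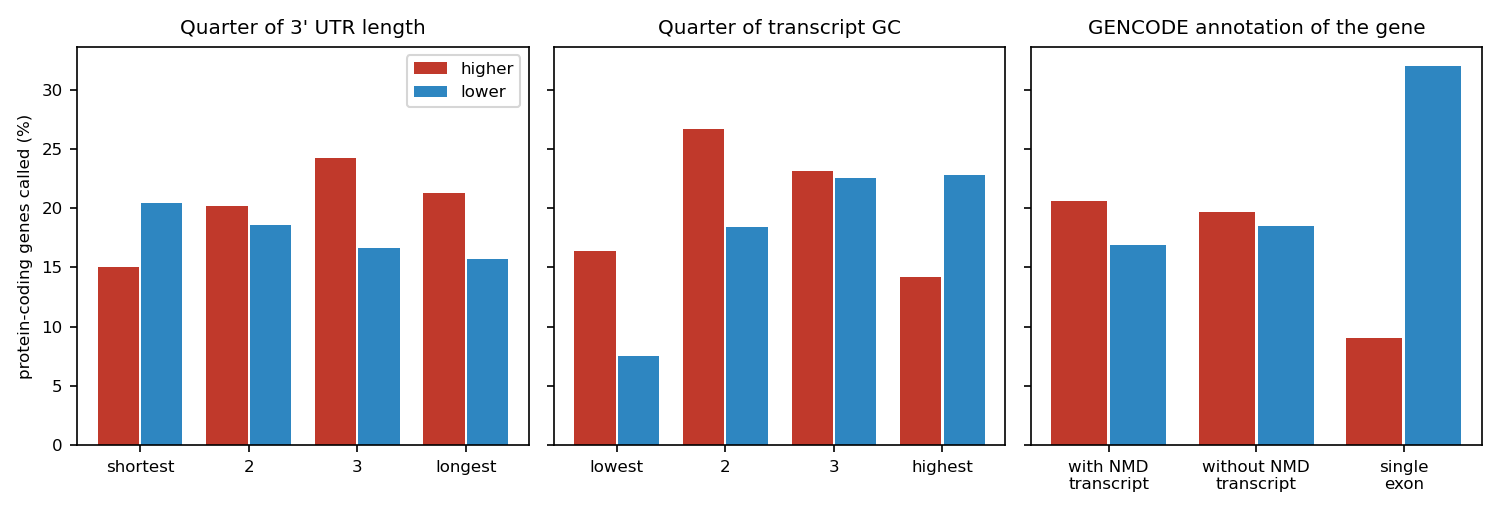
Share of protein-coding genes called higher or lower (percent, axis from 0) by 4 equal classes of 3′ untranslated region length, 4 of transcript GC content and by annotation. Genes with and without an annotated NMD transcript differ by less than 2 percentage points, and single-exon genes are called lower in 32.0% of cases.

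The same knockdown was repeated in the presence of 5 nM R1881, in 6 other libraries. These entered the vehicle test through the low-count filter, the scaling and the estimate of the spread. In R1881, 5128 genes were called (33.3%), 2710 higher (17.6%) and 2418 lower (15.7%). Of the 2853 genes higher in vehicle, 2615 (91.7%) also had a positive log2 fold change in R1881 and 1747 (61.2%) were called higher. Of the 2465 lower genes, 2225 (90.3%) were negative and 1311 (53.2%) were called lower. For changes of at least 2-fold the called shares were 57.3 and 69.1%. Taken from the other side, 64.5% of the genes called higher in R1881 and 54.2% of those called lower were called the same way in vehicle. UPF1 libraries 1 and 2 in R1881 had the lowest MALAT1 shares of the series, 0.374 and 0.452%, against 1.35 to 3.06% with control siRNA and R1881. Without them 1812 genes were called in R1881, and 27.9% of the higher and 29.9% of the lower vehicle calls were called there, while 91.2 and 92.6% kept their direction.

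Several of the steepest changes had close values with R1881. UPF1 (-2.51), MAPK3 (-2.23), REG4 (2.95) and NAV3 (2.87) stood near their vehicle values. Others of the 15 highest did not: RAET1L stood at 1.89, FBN1 at 1.82 and TFF1 at 1.01 in R1881. NEURL3 (0.69), BIRC3 (-0.40) and FOS (-0.60) were not called there. Mitotic genes fell in 61 of 65 cases (median -1.65), replication-dependent histones in 35 of 44 (-1.22) and ribosomal protein genes in 68 of 80 (-0.36). Interferon-stimulated genes rose in 27 of 50 and fell in 1 (median 0.51), with RSAD2 at 1.82. Core NMD factors rose in 6 of 17 cases and fell in 2, and described NMD targets in 17 and 11 of 48. MEGF10 was at 0 in the 3 control libraries with R1881 and at 0.0581, 0.280 and 0.0851 CPM with UPF1 siRNA, and was not called (edgeR adjusted p = 0.066).

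The difference between the knockdown effects with and without androgen was called for 419 genes (2.72%), 319 of which were called in vehicle. CDKN2B was higher by 2.75 in vehicle and stood at 0.10 in R1881 (interaction edgeR adjusted p = 2.5e-05). GDF15 went from 2.24 to 0.68 (0.00055), AGR2 from 2.89 to 0.63 (5.6e-07), CLDN8 from 3.04 to 1.39 (0.0023), B2M from 0.71 to -0.10 (0.00034) and GBP1 from 1.87 to -0.12 (0.004), with the interaction's edgeR adjusted p in parentheses. The fall of CDC6 (-1.69 in vehicle, -0.36 in R1881) was also smaller with R1881, with edgeR adjusted p = 0.0055. Of the 55 licensing and fork genes, 16 had a more positive effect in R1881 by that test, and 4 of 50 interferon-stimulated genes a more negative one. Without UPF1 libraries 1 and 2 in R1881, 57 genes in all were called for a difference and none of those 16 or 4, although the median difference of the licensing list was 0.45 against 0.44 with all libraries.

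**Figure D5:**
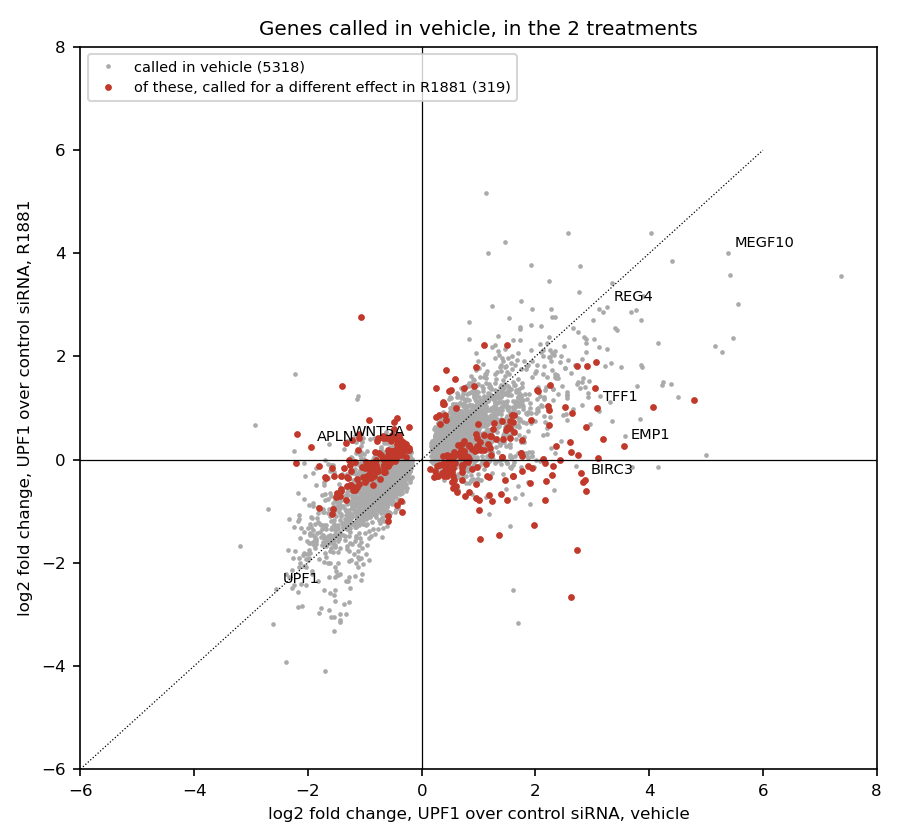
Log2 fold change of UPF1 siRNA against control siRNA in vehicle (horizontal) and in R1881 (vertical) for the 5318 genes called in vehicle, with the 319 genes whose effect differed between the treatments in red. UPF1 lies near the diagonal, while BIRC3 (2.87 and -0.40) and EMP1 lie near the horizontal axis.

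RCOR1 siRNA in vehicle gave another targeting pool for a direct comparison. RCOR1 encodes the CoREST scaffold of a histone demethylase complex. Between UPF1 and RCOR1 siRNA, 5101 genes differed (33.1%), 2803 of them higher (18.2%) and 2298 lower (14.9%) with UPF1 siRNA. The 3 UPF1 libraries are the same as in the comparison with control siRNA. The largest differences in favour of UPF1 siRNA were in MEGF10 (6.93), KCNU1 (4.68), NAV3 (3.76), FREM1 (3.32), RP11-816J6.3 (3.26), REG4 (3.16), the photoreceptor channel CNGB3 (3.04) and BIRC3 (3.03). In the other direction stood RP11-288G3.4 (-3.04), the nuclear factor AFF3 (-2.46), the stem cell factor SALL4 (-2.36), UPF1 (-2.24), the glucosyltransferase POGLUT2 (-2.07), MAPK3 (-2.02) and the axonemal dynein DNAH2 (-2.01). RCOR1 siRNA against the control libraries gave 1.99 for RP11-288G3.4, 1.29 for AFF3 and 1.58 for SALL4, all called, and -1.46 for RP11-816J6.3 (called) and -1.40 for CNGB3 (not called). UPF1 siRNA against the same control libraries gave -1.05 for RP11-288G3.4 (edgeR adjusted p = 0.057) and -0.78 for SALL4 (edgeR adjusted p = 0.051), neither called, -1.17 for AFF3, 1.80 for RP11-816J6.3 and 1.65 for CNGB3.

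By list, 77 of 80 ribosomal protein genes were lower than with RCOR1 siRNA (median -0.53), 38 of 44 replication-dependent histones were lower and 36 of 50 interferon-stimulated genes were higher (median 0.82). For mitotic genes 36 of 65 were lower and 1 higher, and for licensing genes 28 of 55 were lower and 3 higher. Against the shared control libraries, where 5.31% of genes were higher and 6.21% lower with RCOR1 siRNA, RCOR1 siRNA lowered 33 of 65 mitotic genes (median -0.75), 32 of 55 licensing genes and 20 of 44 histones (-0.53) and raised 6 of 50 interferon-stimulated and 4 of 80 ribosomal protein genes (0.14). MYC stood at -1.73 with UPF1 and -0.67 with RCOR1 siRNA, and CDKN2B at 2.75 and 1.22. The integrated stress response had 19 of 35 genes higher and 1 lower with UPF1 than with RCOR1 siRNA. Against control, UPF1 siRNA raised 13 of the 35 and lowered 3, and RCOR1 siRNA raised 2 and lowered 10.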

How the data were processed

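The deposited table held raw counts, not normalized. The submitters' processing notes name bcl2fastq 2.20, STAR 2.7.9a on GRCh38.p7 and featureCounts of Subread 1.6.4. Neither strand setting nor annotation release was given in the sources used here. Gene structure and coordinates were taken from GENCODE 29, which matched 58381 of 60649 gene identifiers (96.3%).

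With edgeR 4.0.16 (R 4.3.3), genes were filtered by filterByExpr, libraries scaled by TMM, and all 18 libraries fitted with a mean for each of the 6 groups, which gave 12 residual degrees of freedom and a common dispersion of 0.024. The quasi-likelihood test of edgeR was used, and a gene was called at a Benjamini-Hochberg adjusted p below 0.05 over all 15390 genes. Standard errors were derived from the test. DESeq2 1.42.0 served as an alternative, as did the first principal component of log2 CPM centred by group, used as a covariate, and offsets smoothed on transcript GC content in each library. In simulated counts for the vehicle comparison, 100 genes were changed 2-fold and 100 were changed 1.5-fold. All of them had a mean of at least 5 CPM over the 18 libraries. Of these, 83% and 41% were recovered, and 5 of 15190 unchanged genes were called. Recovery below 5 CPM was not tested. Whether these rates hold with as many changes as were called in the data, or with the within-group component, was not tested either.

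The comparison and the 40 gene lists, which share 59 genes, were chosen with earlier results of these data known. Named genes were the 15 highest and 15 lowest called genes with at least 2 CPM and no overlap between groups, the 10 called genes of highest mean CPM, the 6 long noncoding genes of largest change in each direction, list members, the 8 of largest change in each direction in the interaction and against RCOR1 siRNA, and UPF1, RCOR1, MALAT1, GAS5 and KLK3. MAPK3 was named outside its list rule. Some genes within these rules are not reported here. The genes of highest counts not described above were MT-CO2 (-0.34), HSPA8 (-0.39), GAPDH (-0.57), RPL13A (-0.50), FOLH1 (0.30) and ABHD2 (0.59), as log2 fold changes in vehicle.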

Additional observations from a re-analysis of the deposited data

Results flagged for a closer look

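The effect of UPF1 siRNA differed between R1881 and vehicle for 419 genes by edgeR's interaction test, and for 57 genes without UPF1 libraries 1 and 2 in R1881. The values below are the log2 fold change in R1881 minus that in vehicle for the 8 largest in each direction among called genes with a mean of at least 2 CPM over the 12 control and UPF1 libraries, each picked out because that difference passed the test, and no explanation was tested.

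On the positive side stood the laminin LAMA1 (2.84), the amine oxidase AOC1 (2.81), the neuronal adhesion protein SLITRK3 (2.28), the peptide hormone APLN (2.19), the factor MYB (1.69), the ligand WNT5A (1.67), RNF165 (1.6) and the keratin KRT14 (1.44). WNT5A had 11.5, 8.88 and 8.44 CPM with control and 3.03, 3.95 and 4.48 CPM with UPF1 siRNA in vehicle, and 5.98, 8.26 and 7.77 against 8.59, 10.6 and 8.42 CPM in R1881. UPF1 siRNA was therefore below control in every vehicle library and above it in every R1881 library for WNT5A. Taken alone, the R1881 difference was not called (0.33, edgeR adjusted p = 0.16). SLITRK3 had 21.1 ± 1.10 and 19.6 ± 1.45 CPM in vehicle (SD, n = 3), where it was not called, and 0.577, 0.439 and 0.452 CPM with control against 2.09, 2.24 and 2.47 CPM with UPF1 siRNA in R1881.

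On the negative side stood SAMD9 (-3.41), the muscle protein TTN (-3.38), the membrane protein EMP1 (-3.29), BIRC3 (-3.26), the zinc finger gene ZNF292 (-3.25), the fucosyltransferase FUT9 (-3.23), ANGPT2 (-2.82) and ARAP2 (-2.69). EMP1 went from 0.265, 0.347 and 0.0917 CPM to 3.82, 3.08 and 2.09 CPM in vehicle, and had 3.97, 3.87 and 2.62 against 4.07, 4.34 and 4.34 CPM in R1881. ZNF292 had 13.4, 86.8 and 87.1 CPM with UPF1 siRNA in vehicle, so that UPF1 library 1 lay far from its group.

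Without UPF1 libraries 1 and 2 in R1881, the edgeR adjusted p was 0.0015 for SLITRK3, 0.042 for APLN, 0.042 for WNT5A and 0.015 for EMP1, and the other 12 genes were not called (for example BIRC3 at -2.32, edgeR adjusted p = 0.066, and ZNF292 at -2.68, edgeR adjusted p = 0.44). SLITRK3, APLN, WNT5A and EMP1 were called under all 18 other settings run for them, which include this one. The settings reuse the same libraries, so these calls are no independent support.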

How the results depend on the processing

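No paired analysis was run. The titles number the 18 libraries consecutively, with control, RCOR1 and UPF1 siRNA in turn. No label gives a replicate number shared between groups or says that neighbouring numbers belong together. Of the genes called in vehicle, 0 changed sign under any setting tried. Each setting refitted the same libraries or a part of them, so that count is no independent support for the calls. The total of 5318 became 8125 (4556 higher) with the within-group component as a covariate, the 2465 lower genes became 1623 without UPF1 library 1 and control library 2, and the 667 genes at least 2-fold higher became 328 with at least 50 counts in 3 libraries. That component was drawn from the differences of these same libraries from their group means, so as a covariate it takes up spread. The larger counts with it, here and in the lists, are therefore no independent support for the calls. With the 6 libraries filtered, scaled and fitted alone, 4271 of 14472 genes were called. Leaving out each replicate gave 4405 to 4697 in vehicle, 3789 to 5354 in R1881 and 4047 to 5302 against RCOR1 siRNA. In R1881, 1812 genes were called without UPF1 libraries 1 and 2, which leaves 1 library assumed to vary like the other groups. The 419 genes of the interaction became 1320 with no low-count filter, 639 with DESeq2, 1732 with offsets smoothed on GC content, 57 without UPF1 libraries 1 and 2 in R1881, and 195 (without UPF1 replicate 2 in vehicle) to 1169 (without UPF1 replicate 3 in R1881) when replicates were left out. The causes were not tested. Removing these libraries, smoothing on GC content and leaving out R1881 replicates were chosen after seeing the data. Vehicle calls were lost under 2 settings for KLK3, 5 for FOLH1 and 4 for MT-CO2, among them leaving out control replicate 2 for each. Depth limits the lowest genes: those under the filter, such as IFNB1, were not tested.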

Other observations

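Aminoacyl-tRNA synthetases, which charge tRNAs with amino acids and include several ATF4 targets, went both ways in vehicle: of 22 tested, 6 rose and 7 fell (median 0.04), 3 and 4 without UPF1 library 1 and control library 2. NARS1 (0.54), SARS1 (0.49) and GARS1 (0.45) rose, and VARS1 (-0.66), FARSB (-0.62) and FARSA (-0.51) fell. The letters TGATGCAA, a C/EBP-ATF response element, were found in 6 of 18 synthetase promoters (33.3%) and in 0.476% of all promoters searched. Of 16 zinc transporters and metallothioneins, 5 rose and 1 fell, led by the exporter SLC30A10 (1.39), and 11 rose with the within-group component as a covariate. Of 13 mitochondrially encoded transcripts, MT-CO2 (-0.34) was the 1 called in vehicle, and in R1881 8 fell.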
